A study of Mus musculus with 17 samples.

Results

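The E14 sorts form a crossed design of GFP level and Prominin gate, and the question was which genes differed between GFP-high and GFP-low cells in another way once cells were also selected for Prominin. The 13 E14 arrays of 17 in the series were taken, with GFP level and gate read from the sample titles. All were flow-sorted cortical cells of embryonic day 14 (E14) mouse embryos that carry the hGFAP-eGFP transgene. The 4 groups were GFP-high with Prominin selection (n = 4 arrays), GFP-low with Prominin selection (n = 3), GFP-high (n = 3) and GFP-low (n = 3). Titles of the last 2 groups name no Prominin gate, and these cells are called ungated here. In this line a human GFAP promoter drives enhanced green fluorescent protein (GFP), so GFP marks cells by transgene activity and not by Gfap itself. The mouse Gfap probe set lay below the median gene in every group (5.42 ± 0.26, 5.10 ± 0.79, 5.59 ± 0.36 and 4.82 ± 0.45, mean ± SD, in the order of groups just given). The cortical gene Emx1 was well above the median in all 4 groups, at 9.58 ± 0.20, 9.13 ± 0.25, 8.96 ± 0.30 and 8.53 ± 0.15. The labels do not say that samples came from separate litters or sorts, so the p-values reflect no more than the variation among these arrays, and part of it may be technical.

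Radial glia are the stem and progenitor cells of the embryonic cortex. Their cell bodies lie in the ventricular zone, and their apical membrane carries Prominin, the product of Prom1. They divide there and give rise to neurons directly or through basal progenitors, which express Eomes and divide away from the ventricle. Cajal-Retzius neurons are early-born cells of the cortical surface that secrete the Reln product and come from the cortical hem, the septum and the pallial border.

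Levels are log2 of the deposited signal plus 16, after quantile normalization. Below, a GFP contrast is the mean level in GFP-high cells minus that in GFP-low cells, and the interaction is the gated contrast minus the ungated contrast. A gene was called where limma's moderated test (two-sided) gave a Benjamini-Hochberg adjusted p under 0.05 over all 18193 genes. Errors of contrasts are standard errors. The median gene lay at 6.29, and the added 16 makes differences of dim genes smaller than those of their signals. The Trpn control probe sets, for a bacterial transcript, reached a group mean of at most 4.81. No fold is given where the lower group lay near or below that level. In bulk samples, fewer cells of a type and less RNA per cell cannot be told apart.

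The gated and ungated arrays also differed in ways the groups cannot separate from the gate. RNA of the 7 gated samples and of ungated GFP-high replicate 1 was labelled with MessageAmp II, while the 5 remaining ungated samples were labelled with an IVT kit of Affymetrix. Signals of an 18S ribosomal RNA control were 2110 to 6147 on gated arrays and 114 to 1396 on ungated arrays. The Gapdh 3′ probe set exceeded the 5′ one by 0.54 to 2.29 on gated arrays and by −0.25 to 0.18 on ungated arrays. Gated GFP-high replicate 1 had the highest 18S signal and the smallest Gapdh difference of the gated arrays. Its Dap control read 4145, against 0.63 to 21.6 on the other gated arrays and 613 to 1713 on ungated arrays. Without this array 1280 genes were called in the interaction. A difference between gated and ungated arrays that is equal at both GFP levels on the log2 scale drops out of the interaction. The kit is not wholly such a difference, since ungated GFP-high replicate 1 shares the kit of the gated arrays. Part of even an equal kit shift therefore enters the interaction. Any part of these differences that is not equal was not tested. A fit with the kit as a term called 1083 genes. That fit takes the kit shift as equal at both GFP levels, so it cannot test an unequal one. It also estimates the kit shift from ungated GFP-high cells alone, where replicate 1 is the single MessageAmp II array. In that fit the ungated contrast comes from the other ungated GFP-high arrays. The fit without replicate 1, which called 1081 genes, is therefore not a separate check.

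The interaction was called for 1400 of 18193 genes, which is 7.7% of those tested. It was positive for 704 genes (3.87%) and negative for 696 (3.83%), and the median over all genes was 0.00. Counts of called members in the gene lists below stand against these shares of all genes. The GFP contrast itself was called for 283 genes with the gate (1.56%), of which 209 were lower in GFP-high cells (1.15%), and for 4098 without it (22.5%). Of the 261 genes called in both contrasts, 260 had the same sign.

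By these calls, 1178 of the 1400 interaction genes had a called GFP contrast only without the gate. For another 189 the contrast was called in both settings with the same sign and was smaller with the gate. In 0 genes was it larger with the gate, and in 1, Reln, with a pseudocount of 64. A contrast that appeared with the gate was found for 11 genes (0.0605%), and 1 gene, Ebf3, reversed (0.0055%). The remaining 21 had a called interaction with neither contrast called. The interaction was also the gate effect in GFP-high cells minus the gate effect in GFP-low cells, and the larger of these effects was in GFP-low cells for 701 of 1400 genes. By this measure neither GFP level carried most of it. Unlike the interaction, a gate effect within a GFP level holds the whole technical difference between gated and ungated arrays, also an equal one. Here and below, the GFP level in which a gene moved cannot be told apart from such a difference. Within GFP-low cells the gate effect was called higher for 1957 genes (10.8%) and lower for 1539 (8.46%).

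**Figure D1:**
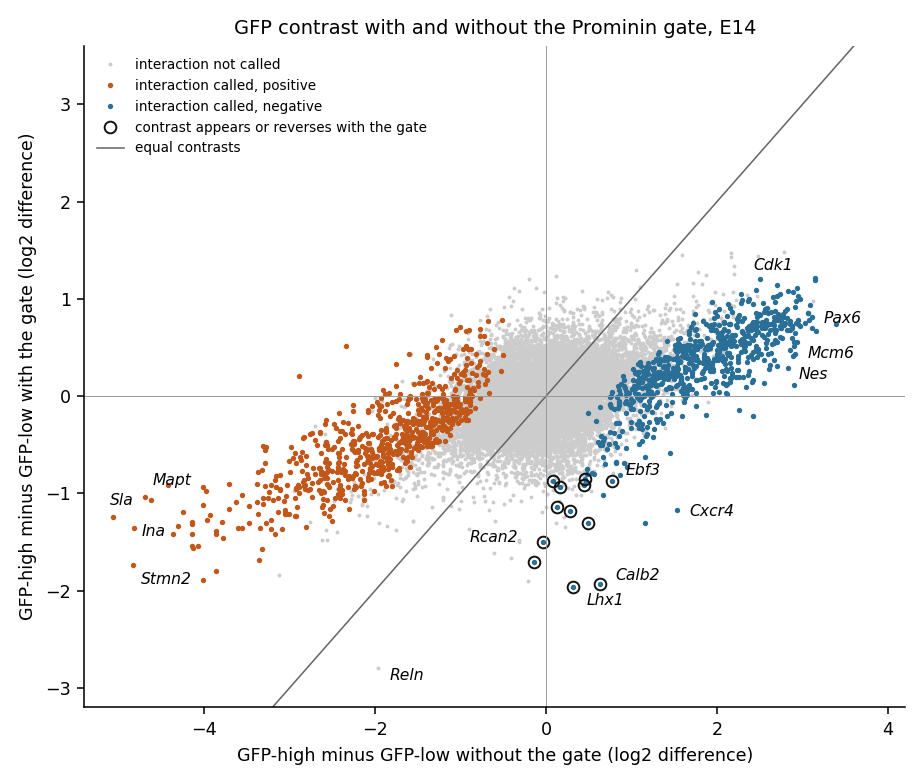
Each point is 1 of 18193 genes, with the ungated GFP contrast on the horizontal axis and the gated contrast on the vertical axis, both as log2 differences. Called genes lie mostly at the far left and far right and closer to 0 on the vertical axis, and the 12 ringed genes, below 0 on the vertical axis, are those whose contrast appeared or reversed with the gate.

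Neuronal genes had positive interactions. In the list of postmitotic neuron genes 19 of 24 measured members had a positive and 0 a negative interaction. Their median interaction was 1.66, their median ungated contrast −2.45 and their median gated contrast −0.79, so the gated fall was 32.4% as large on the log2 scale. Stmn2, which encodes a microtubule-destabilising protein of growing axons, read 9.58, 10.12, 10.05 and 9.47 in gated GFP-high cells, 11.34, 11.83 and 11.44 in gated GFP-low cells, 7.39, 7.70 and 7.53 in ungated GFP-high cells, and 12.53, 12.55 and 12.03 in ungated GFP-low cells. GFP-high arrays were below GFP-low arrays in both settings without overlap, and the gap was wider without the gate. Stmn2 was 28.4-fold lower in GFP-high cells without the gate and 3.32-fold lower with it (interaction 3.10 ± 0.31, adjusted p = 5.61e-05).

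Mapt, which encodes the microtubule protein tau, read 8.74, 8.76, 8.47 and 8.04 in gated GFP-high cells, 9.30, 9.92 and 9.38 in gated GFP-low cells, 7.24, 7.66 and 7.75 in ungated GFP-high cells, and 12.34, 12.27 and 12.11 in ungated GFP-low cells. The 3 ungated GFP-low arrays stood far above the rest, and GFP-high arrays were below GFP-low arrays in both settings. The contrast was −4.69 ± 0.22 without the gate and −1.03 ± 0.21 with it (interaction 3.65 ± 0.30, adjusted p = 1.85e-05). The positive interaction of largest size was in Sla, a Src-like adaptor gene, at 3.82 ± 0.43 (adjusted p = 0.000129). It fell from 9.84 ± 0.34 in ungated GFP-low cells to 7.42 ± 0.18 in gated GFP-low cells, and it was near the control level in ungated GFP-high cells, at 4.78 ± 0.51.

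The neuronal genes did not all reach their interaction in the same way. Stmn2 and Ina, which encodes the neurofilament-related protein alpha-internexin, moved mainly in GFP-high cells, where gated cells had 4.81-fold and 7.63-fold more than ungated cells. Mapt and Sla moved mainly in GFP-low cells, where gated cells had 6.50-fold and 5.36-fold less. Tubb3, a neuronal tubulin gene, was 3.49-fold lower in gated than in ungated GFP-low cells and differed by −0.26 in GFP-high cells (adjusted p = 0.390). Over the list, the median gate effect was 0.77 in GFP-high cells and −0.84 in GFP-low cells. Cntn2, an axonal adhesion molecule of the immunoglobulin family, had an interaction of 2.59 ± 0.29 (adjusted p = 0.000125).

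Genes of synapses and ion channels followed, with 11 of 20 measured members positive and 1 negative, and a median of 1.18. Cplx1, which encodes the vesicle fusion regulator complexin 1, was 9.89-fold lower in GFP-high cells without the gate, and with it the difference was −0.52 (adjusted p = 0.395). Slc17a6, the gene of the vesicular glutamate transporter VGLUT2, was the negative one, at −1.11 ± 0.32 (adjusted p = 0.0404). It was higher in GFP-high cells without the gate (1.23, adjusted p = 0.000642), and its interaction call was lost in 16 of 23 alternative settings. Transcription factors of cortical layers had 6 positive members of 18 and 0 negative, with a median of 0.75. Mef2c reached 2.48 ± 0.32 (adjusted p = 0.000320) and Bcl11b, a factor of deep-layer neurons, 1.91 ± 0.30 (adjusted p = 0.000835). Diras1, a Ras-family GTPase gene outside these lists, had a contrast without the gate (4.89 ± 0.47 against 7.78 ± 0.33) and levels of 5.92 ± 0.41 and 5.71 ± 0.48 with it (adjusted p of the gated contrast = 0.874, interaction 3.10 ± 0.43).

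**Figure D2:**
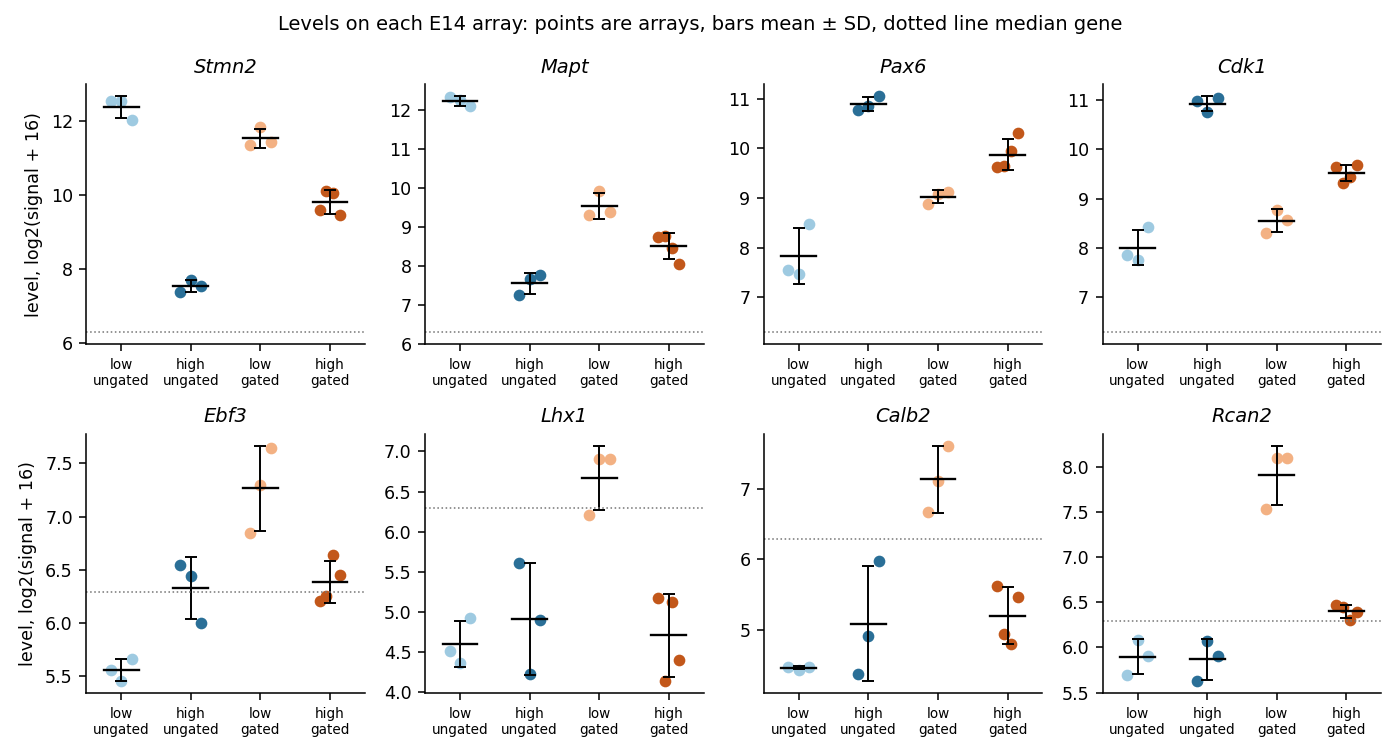
Levels of 8 genes on each of the 13 E14 arrays (log2 of signal plus 16, a separate vertical axis for each gene), with points for arrays, bars for the group mean ± SD and a dotted line at the median gene. In the upper row GFP-high and GFP-low arrays are closer with the gate than without it, and in the lower row the gated GFP-low arrays are the highest group.

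Genes of radial glia had the opposite sign. In the apical radial glia list 22 of 29 members had a negative interaction and 0 a positive one, with a median of −1.65. The median contrast was 2.42 without the gate and 0.73 with it, or 30.3% as large. Pax6, the homeodomain factor that marks these cells, read 9.63, 9.63, 9.94 and 10.30 in gated GFP-high cells, 8.88, 9.08 and 9.12 in gated GFP-low cells, 10.78, 10.86 and 11.05 in ungated GFP-high cells, and 7.54, 7.47 and 8.47 in ungated GFP-low cells. The gated groups lay between the ungated groups on every array, and GFP-high stayed above GFP-low in both settings. Pax6 was 8.38-fold higher in GFP-high cells without the gate, and with it the difference of 0.85 ± 0.23 was not called (adjusted p = 0.0756). The interaction was −2.22 ± 0.33 (adjusted p = 0.000685). Of 5 Pax6 probe sets 3 were called, all in this direction.

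Of 15 pallial patterning genes, which include Pax6, 7 were negative and 0 positive, and 4 were negative with a pseudocount of 1 or without ungated GFP-low replicate 1 or 2. Emx2 had an interaction of −2.30 ± 0.33, Gli3, an effector of Hedgehog signalling, −2.05 ± 0.33, and Nr2e1, the stem cell nuclear receptor also called Tlx, −2.16 ± 0.28. In Nr2e1 the gated contrast was still called (0.93, adjusted p = 0.0229). Nes, which encodes the intermediate filament nestin, reached −2.54 ± 0.59 (adjusted p = 0.0130), with a wide spread of 1.33 (SD) in ungated GFP-low cells, and its call was lost with a pseudocount of 1 (adjusted p = 0.0597). Among the pallial genes that were not called, Emx1 had an interaction of 0.02 ± 0.50 (adjusted p = 0.992). A second, dimmer Emx1 probe set was called at −1.53 ± 0.40 in the fit of all probe sets (limma, adjusted p = 0.0368). Lhx2 was called at −1.15 ± 0.32 (adjusted p = 0.0361), and its call was lost in 13 of 23 settings.

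Within the radial glia list 7 genes were not called, and the called ones differed in which GFP level carried the gate effect. Fabp7, the brain fatty acid binding protein of radial glia, fell in gated GFP-high cells by 1.84 relative to ungated GFP-high cells, and in GFP-low cells the gate difference was −0.35 (adjusted p = 0.274). Its interaction was −1.49 ± 0.28 (adjusted p = 0.00316). Ptprz1, a receptor phosphatase, and Cdh2, which encodes N-cadherin, had interactions of −0.16 (95% interval −0.73 to 0.41) and −0.01 (−0.71 to 0.69). Both were lower in gated than in ungated cells, by 1.17 or more at either GFP level, and these gate effects were called. Such shifts at both GFP levels cannot be told apart from the kit and array differences between gated and ungated samples. Slc1a3, the glutamate transporter GLAST, had an interaction of −1.11 (95% interval −2.06 to −0.17) that was not called (adjusted p = 0.167), and 1 of its 6 probe sets was called.

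Prom1, the gene of the protein used for the gate, read 10.93 ± 0.09 and 10.19 ± 0.08 in gated GFP-high and GFP-low cells and 10.79 ± 0.04 and 8.63 ± 0.29 in the ungated groups. The gate therefore went with 2.94-fold more Prom1 in GFP-low cells and with a difference of 0.14 in GFP-high cells (adjusted p = 0.585). Since cells were chosen for its product, this is a check of the sort and not a finding.

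Basal progenitor genes had 6 of 20 members negative, 0 positive and a median interaction of −1.10. With a pseudocount of 64, 12 were negative, and 13 were with the dimmest 40% of genes left out. Eomes, the T-box factor that defines these cells, was at 12.05 ± 0.04 and 11.49 ± 0.09 with the gate and at 12.08 ± 0.11 and 9.76 ± 0.40 without it (interaction −1.76 ± 0.28, adjusted p = 0.000966). It stayed level in GFP-high cells, where the gate difference was −0.04 (adjusted p = 0.929), and was 3.30-fold higher in gated than in ungated GFP-low cells. Neurog2, a proneural factor, had an interaction of −1.75 ± 0.39, and Btg2, an antiproliferative gene of neurogenic divisions, −1.45 ± 0.23. Tfap2c, an AP-2 factor, had −1.65 ± 0.38 (adjusted p = 0.0127), lost when both GFP-high arrays numbered 1 were left out (adjusted p = 0.0628).

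Cell cycle genes had the highest shares of called members of any list. All 23 measured genes of mitosis and G2/M had a called negative interaction, from −2.39 to −1.39, and the median contrast was 2.71 without the gate and 0.70 with it (25.8% as large). Of 23 genes of DNA replication and S phase, 20 were negative and 0 positive, with median contrasts of 2.08 and 0.53 (25.7%). Cdk1, the kinase that drives entry into mitosis, read 9.65, 9.33, 9.44 and 9.68 in gated GFP-high cells, 8.31, 8.78 and 8.56 in gated GFP-low cells, 10.98, 10.77 and 11.05 in ungated GFP-high cells, and 7.85, 7.75 and 8.42 in ungated GFP-low cells. Ungated GFP-high arrays were the highest and gated GFP-high arrays came next, while the GFP-low groups overlapped each other. Cdk1 was 7.59-fold higher in GFP-high cells without the gate and 1.97-fold higher with it (interaction −1.95 ± 0.26, adjusted p = 0.000352).

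Both GFP levels took part. The median gate effect of the mitosis list was −1.04 in GFP-high cells and 0.96 in GFP-low cells, and that of the S phase list −0.86 and 0.66. Bub1b, a spindle checkpoint kinase gene, was 2.81-fold higher in gated than in ungated GFP-low cells, and in GFP-high cells the gate difference of −0.42 was not called. Mcm6, a subunit of the replicative helicase, was 2.81-fold lower in gated than in ungated GFP-high cells and 1.86-fold higher in GFP-low cells (interaction −2.39 ± 0.28, adjusted p = 0.000191). Uhrf1, which maintains DNA methylation at replication, had −2.49 ± 0.52 (adjusted p = 0.00638). Tk1, the S phase thymidine kinase, and Cip2a, an inhibitor of protein phosphatase 2A, are in neither cell cycle list. Tk1 had −2.66 ± 0.64 (adjusted p = 0.0155), lost with a pseudocount of 1. The negative interaction of largest size over all genes was in Cip2a (−2.79 ± 0.49, adjusted p = 0.00177), which was not called when all its probe sets were averaged (adjusted p = 0.175).

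Promoters of mitotic genes commonly hold a cell cycle homology region (CHR) and CCAAT boxes, through which repression and activation over the cycle act. Stretches of 120 bases directly before the start of 4 members are shown because all measured mitosis genes were called, and these 4 were chosen among those that hold both strings described next. They come from RefSeq on GRCm38.p6, 5′ to 3′ in the direction of the gene, and capitals mark the CHR letters TTTGAA and the letters CCAAT, each on either strand. Cdk1 lies at chr10:69352913-69353032 on the minus strand, Top2a, the mitotic DNA topoisomerase, at chr11:99024190-99024309 on the minus strand, Ube2c, a ubiquitin-conjugating enzyme of mitotic exit, at chr2:164769809-164769928 on the plus strand, and Cdc20, an activator of the anaphase-promoting complex, at chr4:118437344-118437463 on the minus strand.
Cdk1: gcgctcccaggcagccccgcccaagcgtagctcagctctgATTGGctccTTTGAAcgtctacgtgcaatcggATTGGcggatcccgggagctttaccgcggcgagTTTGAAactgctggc
Top2a: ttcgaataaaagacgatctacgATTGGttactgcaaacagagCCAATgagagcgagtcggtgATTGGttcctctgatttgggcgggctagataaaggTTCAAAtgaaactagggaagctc
Ube2c: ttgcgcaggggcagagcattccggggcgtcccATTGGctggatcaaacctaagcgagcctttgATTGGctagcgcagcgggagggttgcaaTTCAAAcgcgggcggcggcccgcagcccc
Cdc20: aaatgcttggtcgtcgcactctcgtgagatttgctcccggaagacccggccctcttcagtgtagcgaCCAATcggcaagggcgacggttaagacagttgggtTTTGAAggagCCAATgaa

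Both letter strings occurred within 250 bases before the start in 8 of the 19 mitosis genes with a listed promoter (42.1%), against 5.09% of 14452 measured genes with one. In the S phase list the share was 11.1% of 18 genes. Among genes with a negative interaction it was 10.4% of 556, and among those with a positive one 3.51% of 542. The strings can share at most 1 base, and a match is a description of the letters only. The interactions of the other printed members were −2.22 ± 0.35 for Top2a, −2.13 ± 0.35 for Ube2c and −1.67 ± 0.31 for Cdc20, with adjusted p of 0.000980, 0.00127 and 0.00306.

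**Figure D3:**
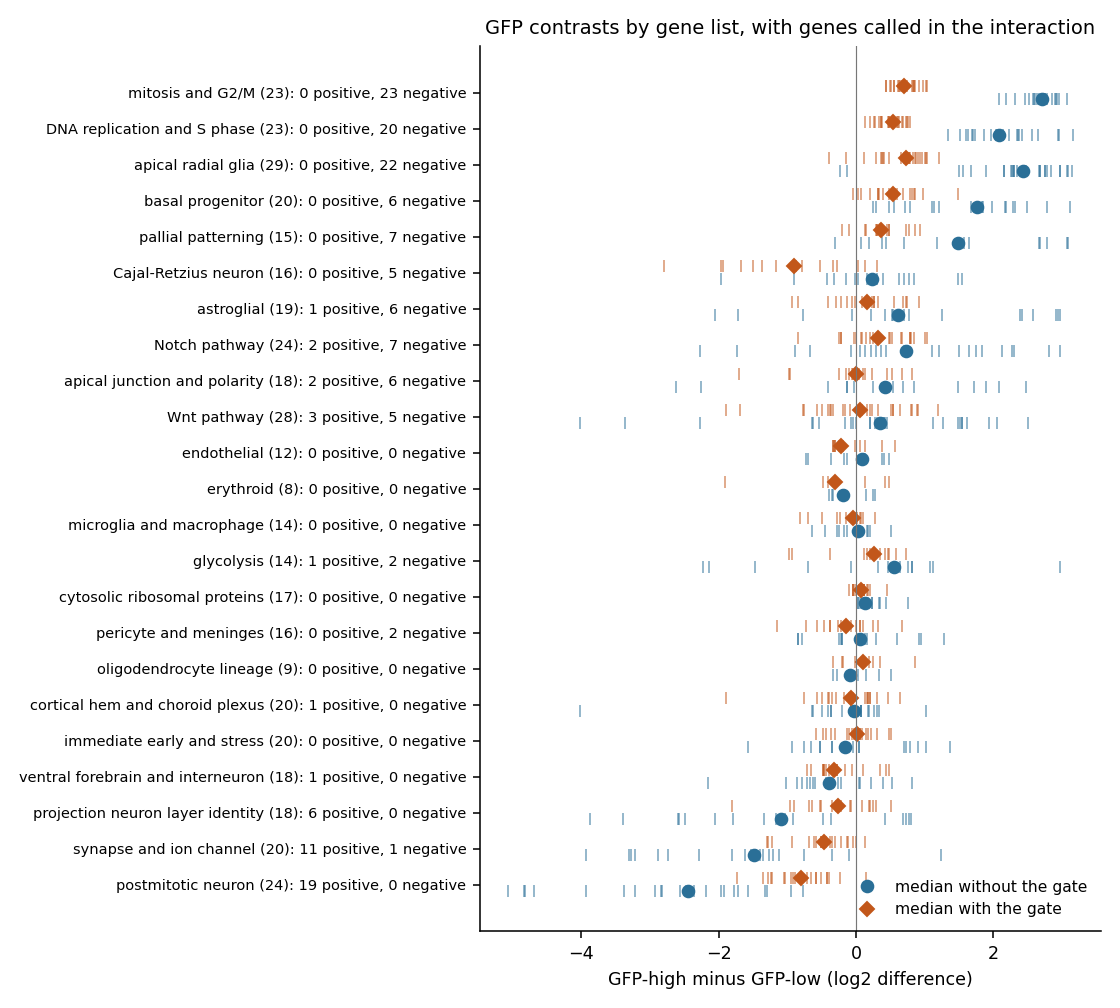
GFP contrasts (log2 difference) of 23 gene lists, with ticks for genes and large markers for list medians without the gate (blue circles) and with it (orange diamonds). Labels give the measured members and how many had a called positive or negative interaction, from 23 negative of 23 in mitosis to 19 positive of 24 in postmitotic neuron, and the 16 Cajal-Retzius genes have medians of −0.90 with the gate and 0.24 without it.

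Genes that appeared or reversed with the gate shared 1 pattern of levels. These classes were defined by the same contrasts, so a difference between the gated groups is part of the definition. In each of the 12, GFP-high cells were lower than GFP-low cells with the gate, and the gated GFP-low group had the highest mean of the 4 groups. The estimated contrast was opposite in sign for 214 of the 1400 called genes (15.3%), against 35.9% of all genes. Of the 214, 95 had a positive and 119 a negative interaction, but for most of the 214 the gated contrast was not called.

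Ebf3, a helix-loop-helix transcription factor of the early B-cell factor family expressed in Cajal-Retzius cells, was the reversed gene. It read 6.21, 6.25, 6.63 and 6.46 in gated GFP-high cells, 6.84, 7.30 and 7.65 in gated GFP-low cells, 6.55, 6.44 and 6.003 in ungated GFP-high cells, and 5.56, 5.45 and 5.66 in ungated GFP-low cells. The GFP-low arrays were the highest with the gate and the lowest without it, with no overlap in either setting, while the GFP-high groups overlapped. Ebf3 was 1.84-fold lower in GFP-high cells with the gate (−0.88 ± 0.19, adjusted p = 0.0300) and 1.71-fold higher without it (0.77 ± 0.20, adjusted p = 0.00993). The interaction was −1.65 ± 0.28 (adjusted p = 0.00144). The gate went with 3.26-fold more Ebf3 in GFP-low cells and a difference of 0.06 in GFP-high cells (adjusted p = 0.887).

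The Ebf3 interaction was called in all 23 alternative settings, with adjusted p up to 0.0101, but the reversal was called in 12 of 24. Without gated GFP-high replicate 1, 2 or 4, or gated GFP-low replicate 2 or 3, the gated contrast of Ebf3 missed the threshold (adjusted p = 0.0713, 0.0695, 0.0735, 0.105 and 0.158). Without ungated GFP-high replicate 1 the ungated contrast missed it (adjusted p = 0.0504). Of 3 Ebf3 probe sets, the brightest was called and the other 2 had interactions of −1.70 and −0.93 that were not.

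Lhx1, a LIM-homeodomain factor of early neurons including Cajal-Retzius cells, read 5.18, 4.13, 5.12 and 4.40 in gated GFP-high cells, 6.21, 6.91 and 6.90 in gated GFP-low cells, 5.61, 4.22 and 4.90 in ungated GFP-high cells, and 4.52, 4.36 and 4.92 in ungated GFP-low cells. All 3 gated GFP-low arrays stood above every other array, and the remaining groups overlapped near the control level. Its contrast was −1.96 with the gate (adjusted p = 0.00675) and 0.31 without it (95% interval −0.40 to 1.02, adjusted p = 0.583), with an interaction of −2.27 ± 0.46 (adjusted p = 0.00492). Both Lhx1 probe sets were called. With a pseudocount of 1 the interaction missed the threshold (adjusted p = 0.0699).

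Calb2, which encodes the calcium-binding protein calretinin, read 5.62, 4.94, 4.79 and 5.46 in gated GFP-high cells, 6.67, 7.11 and 7.62 in gated GFP-low cells, 4.37, 4.90 and 5.98 in ungated GFP-high cells, and 4.47, 4.43 and 4.47 in ungated GFP-low cells. Again the gated GFP-low arrays were above all others. The contrast was −1.94 with the gate (adjusted p = 0.00917) and 0.63 without it (95% interval −0.13 to 1.39, adjusted p = 0.253), and the interaction was −2.56 ± 0.49 (adjusted p = 0.00355). Without gated GFP-low replicate 3 the gated contrast of Calb2 was not called (adjusted p = 0.0609), and the interaction still was (adjusted p = 0.0119).

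Of the genes outside the lists, Rcan2, a regulator of the phosphatase calcineurin, was in this class in all 24 alternatives. It read 6.47, 6.44, 6.30 and 6.39 in gated GFP-high cells, 7.53, 8.10 and 8.09 in gated GFP-low cells, 5.62, 6.07 and 5.91 in ungated GFP-high cells, and 5.70, 6.09 and 5.91 in ungated GFP-low cells. The ungated groups overlapped, and the gated GFP-low arrays were well above the gated GFP-high ones. Rcan2 was 2.84-fold lower in gated GFP-high than in gated GFP-low cells (adjusted p = 0.00530), and its ungated contrast was −0.03 (95% interval −0.55 to 0.49). The interaction was −1.48 ± 0.34 (adjusted p = 0.0117). A second, dimmer Rcan2 probe set was not called, at −0.81.

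Rbms1, Zcchc12 and Dsp complete the class above the median gene level. Rbms1, an RNA-binding protein gene, went from 5.55 ± 0.43 to 6.86 ± 0.40 between gated GFP-high and GFP-low cells and from 5.46 ± 0.16 to 4.97 ± 0.08 between the ungated ones (interaction −1.80 ± 0.38, adjusted p = 0.00638). Zcchc12, a zinc-finger transcriptional coactivator gene, was 2.26-fold lower in gated GFP-high cells (interaction −1.46 ± 0.36, adjusted p = 0.0166) and kept its class in 16 of 24 alternatives. Dsp, which encodes desmoplakin of desmosomes, was at 5.16 ± 0.18 and 6.86 ± 0.26 with the gate and at 4.79 ± 0.38 and 4.93 ± 0.67 without it (interaction −1.57 ± 0.38, adjusted p = 0.0166). Dsp lost its call with a pseudocount of 1 (adjusted p = 0.211) and when both GFP-high arrays numbered 1 were left out (adjusted p = 0.0767). The gated contrast of Rbms1 was not called without gated GFP-low replicate 1 or 3 (adjusted p = 0.0575 and 0.105). That of Zcchc12 was not called without gated GFP-high replicate 1, 3 or 4, or gated GFP-low replicate 3 (adjusted p = 0.0621, 0.0682, 0.0560 and 0.132).

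The other 5 genes of the class, Col1a1, Gm11346, Rp1, Phf8-ps and Gm19531, were dim, with group means of at most 5.601. Col1a1, a fibrillar collagen gene, had an interaction of −1.28 ± 0.35 (adjusted p = 0.0343) and kept its call in 7 of 22 alternatives. Gm11346 kept it in 14 of 22, at −1.09 ± 0.29. Rp1 had −1.35 ± 0.32, Phf8-ps −0.95 ± 0.22 and Gm19531 −1.30 ± 0.27. Of 23 alternatives, Col1a1 was in this class in 7, Rp1 in 9, Gm19531 in 10, Gm11346 in 11 and Phf8-ps in 21.

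In the Cajal-Retzius list as a whole, 5 of 16 measured members had a negative interaction, 0 a positive one, and 15 of 16 estimates were below 0, with a median of −1.08 against 0.00 over all genes. With a pseudocount of 1 the count was 3, and with 64 it was 9. Estimates of the 2 contrasts had opposite signs in 9 members, against 35.9% of all genes, and 6 were called lower in GFP-high cells with the gate. The median gate effect of the list was 1.65 in GFP-low cells and 0.32 in GFP-high cells. Summed signals of the list were 4609 to 6226 on gated GFP-low arrays, 1114 to 1428 on gated GFP-high arrays, and 636 to 679 and 669 to 884 on ungated GFP-high and GFP-low arrays. Reln alone made up 67.3% to 70.5% of the sum on gated GFP-low arrays and 9.94% to 60.5% on the others. Without Reln the sum of the other 15 genes was 1501 to 1881 on gated GFP-low arrays, 648 to 899 on gated GFP-high arrays, and 543 to 612 and 320 to 377 on ungated GFP-high and GFP-low arrays. The gated GFP-low arrays lay above the others without overlap, with Reln and without it. The other 15 genes include the 5 called members, and the list was chosen with earlier results known. These sums are therefore a description and not a separate test.

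Cxcr4, the receptor for the chemokine Cxcl12, came close to a reversal. It read 5.53, 5.66, 5.99 and 6.47 in gated GFP-high cells, 7.19, 6.81 and 7.24 in gated GFP-low cells, 6.77, 6.79 and 6.34 in ungated GFP-high cells, and 4.75, 4.62 and 5.92 in ungated GFP-low cells. Groups did not overlap in either setting and were ordered oppositely, yet the gated contrast of −1.17 was not called (adjusted p = 0.0914), while the ungated one was (1.54, adjusted p = 0.00320). The interaction was −2.71 ± 0.47 (adjusted p = 0.00184). Without ungated GFP-low replicate 3, Cxcr4 was called reversed (gated adjusted p = 0.0395). Kcna7, a potassium channel subunit gene, had a like order of groups (interaction −2.46 ± 0.51, adjusted p = 0.00557) and was also called reversed without that array (gated adjusted p = 0.0262). Zic1, a zinc-finger factor of the medial forebrain, had an interaction of −1.13 ± 0.33 (adjusted p = 0.0431) that was lost in 17 of 23 alternatives. A second, dimmer Zic1 probe set was called at −1.67 ± 0.35 in the fit of all probe sets (limma, adjusted p = 0.00912). In that fit the brighter one was not called (adjusted p = 0.0623).

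Reln, the marker that best defines the cell type, had a called contrast of the same sign in both settings. It read 8.88, 9.36, 8.88 and 8.98 in gated GFP-high cells, 11.62, 11.81 and 12.03 in gated GFP-low cells, 6.46, 6.78 and 6.80 in ungated GFP-high cells, and 8.24, 8.63 and 9.05 in ungated GFP-low cells. Reln was lower in GFP-high cells in both settings, and gated cells had more of it at either GFP level, so that gated GFP-high and ungated GFP-low arrays overlapped. Its interaction of −0.83 (95% interval −1.61 to −0.05) was not called (adjusted p = 0.229). It was called with a pseudocount of 64 (−1.11, adjusted p = 0.0285), and it was 0.15 with both probe sets averaged (adjusted p = 0.890). Trp73, a p53-family factor of Cajal-Retzius cells, had contrasts of −1.37 with and −0.90 without the gate, both called, and an interaction of −0.47 that was not (adjusted p = 0.582). Ndnf, a secreted neuron-derived factor of the same cells, had a gated contrast of −1.67 (adjusted p = 0.0180) and an ungated one of −0.42 (adjusted p = 0.464), but the difference was not called (adjusted p = 0.142). The Ndnf interaction was called in 2 of 23 alternatives, with a pseudocount of 64 (adjusted p = 0.0461) and without ungated GFP-high replicate 3 (adjusted p = 0.0168).

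**Figure D4:**
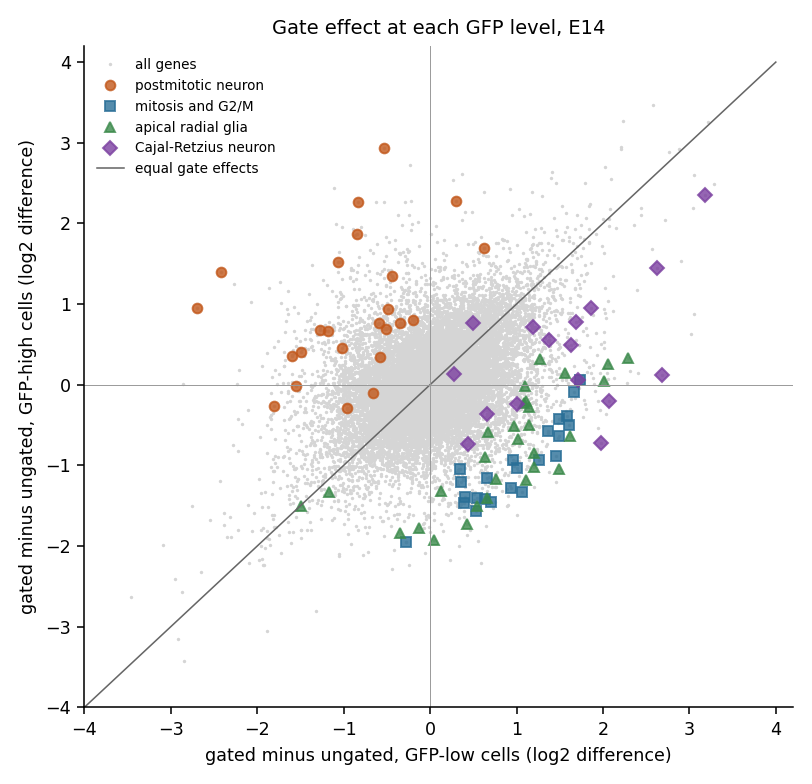
The gate effect (gated minus ungated, log2 difference) in GFP-low cells on the horizontal axis and in GFP-high cells on the vertical axis, with grey points for all 18193 genes and larger symbols for members of 4 lists. Mitosis genes lie mostly below 0 on the vertical and above 0 on the horizontal axis, neuronal genes mostly the other way, and Cajal-Retzius genes to the right, with medians of 1.65 in GFP-low and 0.32 in GFP-high cells.

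A rule without any fitted test counts genes whose groups do not overlap in either setting and are ordered oppositely. This rule was chosen after the data were seen. Groups did not overlap for 13.2% of genes with the gate and 34.3% without it. Groups of 4 and 3 arrays separate by chance less often than groups of 3 and 3, so these shares cannot be compared directly. The rule held for 56 genes (0.308%), and 32 of these were called in the interaction, 21 with a negative and 11 with a positive sign. Groups this small can separate in opposite orders without any true difference, and how many genes would do so was not estimated. The 56 are therefore not a count of reversals. Opposite order also makes both contrasts add up in the interaction, so the 32 calls are not independent of the rule. Ebf3, Cxcr4, Kcna7, Zic1, Rbms1 and Gm19531 were among the 32. In 14 of the 32 the highest group mean lay above the median gene.

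In the Notch list 7 of 24 members had a negative interaction, 2 a positive one, and 15 were not called. The receptors Notch1 (−1.97 ± 0.28, adjusted p = 0.000528) and Notch2 (−2.01 ± 0.42, adjusted p = 0.00640) and the target gene Nrarp (−1.46 ± 0.27, adjusted p = 0.00247) were negative. Notch1 moved in GFP-low cells, where the gate went with 4.91-fold more, and in GFP-high cells the gate difference was 0.32 (adjusted p = 0.267). The positive members were Dner, a neuronal transmembrane protein described as a Notch ligand (1.42 ± 0.27, adjusted p = 0.00302), and Dtx1, which encodes the ubiquitin ligase deltex (1.51 ± 0.38, adjusted p = 0.0189). Dtx1 was not called without ungated GFP-low replicate 2 or gated GFP-low replicate 3 (adjusted p = 0.0554 in each), nor with its probe sets averaged (adjusted p = 0.179). Its second, dim probe set had −0.28 and was not called.

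The Wnt list had 5 negative and 3 positive members of 28, against 3.83% and 3.87% of all genes. It had 3 negative members without ungated GFP-low replicate 2 or gated GFP-low replicate 3. Rspo3, a secreted enhancer of Wnt signalling, had the largest interaction of the list, at 2.12 ± 0.29 (adjusted p = 0.000460). The gated fold was 3.71, lower in GFP-high cells, and the ungated levels were 5.04 ± 0.46 and 9.04 ± 0.12. Dact1, a Dishevelled-binding protein gene, was 10.2-fold lower without the gate and 3.22-fold lower with it (interaction 1.67 ± 0.28, adjusted p = 0.00141). The ligand gene Wnt7b had 1.90 ± 0.37 (adjusted p = 0.00402). Among receptors, Fzd8 kept a called gated contrast (GFP-high cells had 2.30-fold more, adjusted p = 0.00799) and had an interaction of −1.30 ± 0.29 (adjusted p = 0.0105).

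Apical junction and polarity genes had 6 negative and 2 positive members of 18. Tjp1, which encodes the junction protein ZO-1, was negative at −1.54 ± 0.27 (adjusted p = 0.00196), with levels of 8.36 ± 0.25 and 8.41 ± 0.12 with the gate. Celsr1, a planar polarity cadherin, had −1.66 ± 0.37 (adjusted p = 0.00963). The alpha-catenin gene Ctnna2, the neuronal form, was positive (1.64 ± 0.32, adjusted p = 0.00374), as was Prkcz, an atypical protein kinase C (1.29 ± 0.31, adjusted p = 0.0149). Prkcz was not called when all its probe sets were averaged (adjusted p = 0.328).

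Astroglial genes had 6 negative and 1 positive member of 19. Aldoc, the brain aldolase, was 7.85-fold higher in GFP-high cells without the gate and differed by 0.72 with it (adjusted p = 0.108, interaction −2.25 ± 0.31, adjusted p = 0.000435). Mlc1, a membrane protein of astrocytes, had −2.20 ± 0.38 (adjusted p = 0.00179), and the growth factor receptor Fgfr3 −2.03 ± 0.37 (adjusted p = 0.00257). Sparcl1, a secreted matrix protein, was the positive one (1.202 ± 0.27, adjusted p = 0.00975). In glycolysis 3 of 14 genes were called. These were Aldoc, Pgk1 at −0.84 ± 0.24 (adjusted p = 0.0390, lost in 17 of 23 alternatives) and the phosphofructokinase gene Pfkp at 1.29 ± 0.25 (adjusted p = 0.00341).

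Markers of other cells that a cortical sort could hold were also measured. By limma 0 of the 12 endothelial, 14 microglia and macrophage, 8 erythroid and 9 oligodendrocyte genes were called in the interaction, and 0 of each had an unadjusted p under 0.05. In the same order, 10, 13, 7 and 8 of these genes had no group mean above the median gene. At such levels the added 16 makes differences smaller. Of 17 ribosomal protein and 20 immediate early genes 0 were called, with 1 and 3 at an unadjusted p under 0.05. Over all genes 7.7% were called in the interaction, and 3490 (19.2%) had an unadjusted p under 0.05. Of 16 pericyte and meninges genes 2 were called, Col1a1 and Rgs5 (−1.67 ± 0.44, adjusted p = 0.0276, lost in 7 of 23 alternatives), both with means under the median gene. An unadjusted p under 0.05 was found for 5 of the 16. Of 18 ventral forebrain and interneuron genes 1 was called, Zeb2 (1.76), with 4 at an unadjusted p under 0.05. Of 20 cortical hem and choroid plexus genes 1 was called, Rspo3, with 2 at that p. Summed erythroid signals reached 1062 on 1 gated GFP-low array, against 119 to 276 on the GFP-high and ungated GFP-low arrays, and embryonic globin Hbb-y made up 908 of that sum. The part of these cells in the genes with high levels in gated GFP-low cells was not tested.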

How the data were processed

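RNA of FACS-sorted E14 cortical cells was hybridised to Affymetrix mouse arrays, 1 per sample. The deposited values are intensity values on a linear scale, 1 per probe set, processed by the authors. The summarisation software is not given in the sources used here. Per the labels, RNA was extracted with an RNeasy kit and labelled with biotin.

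After 64 control probe sets were left out, 45037 were transformed as log2 of the deposited intensity plus 16 and quantile normalized over the 17 arrays. Of these, 34945 named 1 gene in the platform annotation (932 several, 9160 none), and for each of 18193 genes the brightest probe set by mean level stood for the gene. One model with 5 groups was fitted with limma 3.58.1 in R 4.3.3 (lmFit, eBayes), with the 4 E18 arrays adding to the shared spread. P-values were adjusted by Benjamini-Hochberg over all genes. Figures were drawn with matplotlib 3.10.9 in Python 3.11.15. The procedure was tested on simulated data.

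The comparison, gene lists and named genes were chosen with earlier results of these data known. Named genes were a fixed set of 8, the largest interactions, the genes that appeared or reversed, and up to 4 called members per list with the lowest p (up to 2 where none was called), of which the text names a part. Genes added after their values were seen include Reln, Trp73, Ndnf, Slc17a6, Zic1, Dtx1, Prkcz, Celsr1, Sparcl1, Fzd8, Lhx2, Emx1, Ptprz1, Cdh2, Top2a, Ube2c, Cdc20, Gm11346, Gm19531, Rp1 and Phf8-ps. Alternatives were other pseudocounts, no normalization, a filter on dim genes, E14 arrays alone, separate fits by gate, averaged probe sets, array weights, replicate number and labelling kit as terms, and arrays left out. Arrays of the same number did not deviate together (correlations −0.144 to 0.0402 over 18 pairs), so numbers were not taken as pairs. The number of arrays limits the precision.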

Additional observations from a re-analysis of the deposited data

Results flagged for a closer look

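The GFP contrast differed between gated and ungated cells for 1400 genes, by the test of the difference itself (limma, adjusted p under 0.05), and each named gene past that threshold is listed with its interaction on the log2 scale. Positive values among neuronal, synaptic and layer genes were those of Sla (3.82), Mapt (3.65), Ina (3.46), Stmn2 (3.10), Cplx1 (2.79), Cntn2 (2.59), Mef2c (2.48), Bcl11b (1.91) and Tubb3 (1.54). Other positive values were those of Diras1 (3.10), Rspo3 (2.12), Wnt7b (1.90), Dact1 (1.67), Ctnna2 (1.64), Dtx1 (1.51), Dner (1.42), Zeb2 (1.76), Prkcz (1.29), Pfkp (1.29) and Sparcl1 (1.202). Progenitor and glial genes had negative values in Nes (−2.54), Emx2 (−2.30), Aldoc (−2.25), Pax6 (−2.22), Mlc1 (−2.20), Nr2e1 (−2.16), Gli3 (−2.05), Fgfr3 (−2.03), Fabp7 (−1.49), Prom1 (−1.42) and Lhx2 (−1.15). So did the basal progenitor genes Eomes (−1.76), Neurog2 (−1.75), Tfap2c (−1.65) and Btg2 (−1.45). Cell cycle list members, with Cip2a and Tk1 from outside those lists, gave Cip2a (−2.79), Tk1 (−2.66), Uhrf1 (−2.49), Mcm6 (−2.39), Top2a (−2.22), Ube2c (−2.13), Cdk1 (−1.95), Bub1b (−1.91) and Cdc20 (−1.67). Notch, Wnt, junction, synapse and glycolysis genes gave Notch2 (−2.01), Notch1 (−1.97), Celsr1 (−1.66), Tjp1 (−1.54), Nrarp (−1.46), Fzd8 (−1.30), Slc17a6 (−1.11) and Pgk1 (−0.84). Cajal-Retzius genes and genes highest in gated GFP-low cells gave Cxcr4 (−2.71), Calb2 (−2.56), Kcna7 (−2.46), Lhx1 (−2.27), Rbms1 (−1.80), Rgs5 (−1.67), Ebf3 (−1.65), Dsp (−1.57), Rcan2 (−1.48), Zcchc12 (−1.46), Rp1 (−1.35), Gm19531 (−1.30), Col1a1 (−1.28), Zic1 (−1.13), Gm11346 (−1.09) and Phf8-ps (−0.95). 

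In gated GFP-high cells, the only E14 group of 4 arrays, 1 array stood apart from the other 3 for 4 of 76 genes, by a gap that chance gives in about 1 of 20 groups. Replicate 1 read 9.88 for Emx1, 9.53 for Nrarp and 7.68 for Slc1a3, and replicate 4 read 12.11 for Eomes. Interaction calls of Nrarp and Eomes were kept without either array. Emx1 and Slc1a3 were not called as genes in any alternative setting, although another probe set of each was called.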

How the results depend on the processing

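Between 1031 and 1783 genes were called in the interaction over the alternatives, all within 1.5 times the 1400, and 48.0% to 52.2% of calls were negative. Leaving out ungated GFP-low replicate 3 gave 1720 calls, and leaving out any other single E14 array gave 1031 to 1339. On replicate 3 Pax6 and Cdk1 read higher, and Stmn2 and Mapt lower, than on the other ungated GFP-low arrays. Of the 68 called genes named in the text, 50 kept their call in all alternatives run, 18 lost it in at least 1, 7 lost it in 5 or more, and 0 changed sign.

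The small classes moved most. The number of reversed genes was 0 with a pseudocount of 1, on the E14 arrays alone, with averaged probe sets, with the replicate block, with the kit as a term and without both GFP-high arrays numbered 1. It was 2 with a pseudocount of 64 and 3 without the dimmest 40% of genes, and it was 0 to 3 when 1 array was left out. The rule of groups that do not overlap and are ordered oppositely, added after the data were seen, held for 56 genes. They are not taken as a count of reversals. How many of these would arise without any true difference was not estimated. The number of genes that appeared with the gate was 5 with a pseudocount of 1, 7 without the dimmest 40% of genes, 7 on the E14 arrays alone, 6 with the replicate block and 5 without both GFP-high arrays numbered 1. It was 5 to 15 when 1 array was left out. The number with a larger contrast with the gate was 0, and 1 with a pseudocount of 64. The cause of these shifts was not tested.

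With the replicate block 1095 genes were called, of which 1047 were among the 1400, and the pairing check found no shared deviation of same-numbered arrays. With a pseudocount of 1, Lhx1, Dsp, Nes and Tk1 were among the genes that lost their interaction calls, and Calb2 lost its gated call. What signal over background contributes to these losses was not tested.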
